A study of Mus musculus with 6 samples.

Results

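Adipocyte marker transcripts were measured in scraped colonic mucosa of Tlr2 knockout (Tlr2-/-) and wild-type (WT) mice. The set comprised 8 genes, Adipoq, Cfd, Retn, Plin1, Cidec, Fabp4, Lpl and Car3, out of 14695 genes tested. They were taken as a list of fat cell genes, chosen with earlier results of these data known. They were found on the arrays by transcript accession, which gave 12 probes, all of which passed the filter on low signal. Both groups were C57BL/6 mice at postnatal day 90, and the mucosa had been removed with a microscope slide and frozen. Expression was measured on 4 two-colour arrays, each holding 1 Tlr2-/- and 1 WT sample. Pairs are named by the number of the Tlr2-/- sample, 1, 2, 4 and 5. The Tlr2-/- sample carried the dye Cy3 in pairs 1 and 2 and Cy5 in pairs 4 and 5. The labels do not state that each sample is a separate animal, so the spread given below is that between samples.

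Adipocytes store triglyceride in a large lipid droplet and release hormones such as adiponectin and adipsin. They are not a cell type of the colonic mucosa. Fat lies on the outer side of the bowel, along the mesentery, and it can also lie in the submucosa. In these bulk samples, fewer adipocytes and less marker RNA per adipocyte cannot be told apart.

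On each array 43379 spots were not controls. The share detected well above background was 67.7% to 71.9% for Tlr2-/- samples, against 63.3% to 76.5% for WT samples. By dye, it was 71.0% to 76.5% in Cy5 and 63.3% to 68.8% in Cy3, so detection differed by dye. Tlr2 itself had log2 levels of 7.05, 6.54, 6.87 and 7.71 in the Tlr2-/- samples of pairs 1, 2, 4 and 5, against 11.47, 11.85, 12.37 and 11.90 in their WT partners, in the direction the labels give. A level here is a log2 fluorescence signal after normalisation within and between arrays. It can be compared between samples for 1 probe, but not between probes. Precision is limited by having 4 arrays.

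Fat marker transcripts were most abundant in 1 sample, the Tlr2-/- mucosa of pair 5. All 8 members had their highest level of the 8 samples there, whereas that sample held the highest level for 9.61% of all genes tested. Among the 4 WT samples, the WT partner of pair 5 held the highest level of all 8 members, as it did for 22.1% of all genes. The Tlr2-/- sample of pair 4 came second among Tlr2-/- samples for 6 members, and the share of all genes with that order was not counted. Averaged over the 8 members after centring each on its own mean, the Tlr2-/- samples of pairs 1, 2, 4 and 5 stood at -0.80, -0.73, 0.18 and 2.68 (log2), against -0.57, -0.83, -0.48 and 0.56 in their WT partners. The high Tlr2-/- mean thus rested on pair 5, and the WT range overlapped that of the other 3 Tlr2-/- samples.

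**Figure D1:**
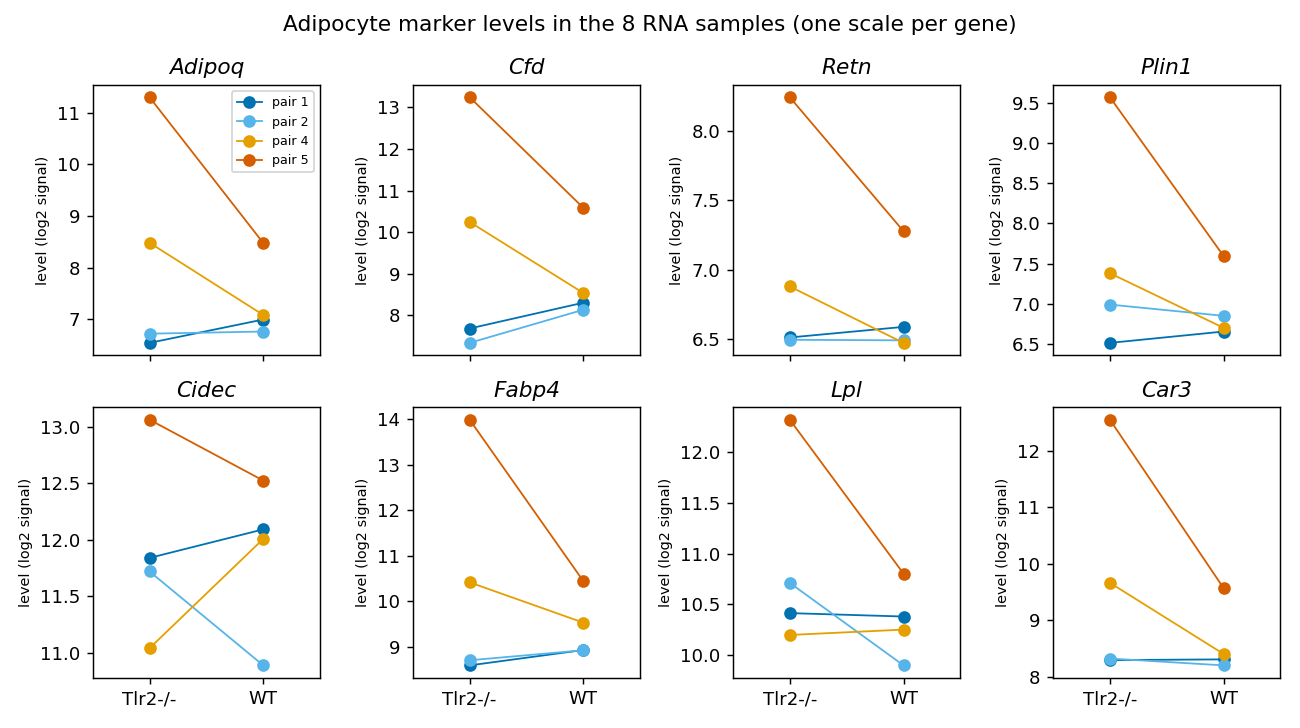
Log2 level of each adipocyte marker in the 8 RNA samples, Tlr2-/- left and WT right, with a line joining the 2 samples of an array. In all 8 panels the highest point is the Tlr2-/- sample of pair 5 and the highest WT point is that of pair 5. Each panel has its own scale.

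Among the secreted products, Adipoq encodes adiponectin, a hormone of fat cells that raises insulin sensitivity. Its levels were 6.54, 6.72, 8.48 and 11.30 in the Tlr2-/- samples of pairs 1, 2, 4 and 5, against 6.99, 6.76, 7.08 and 8.48 in the WT samples. The high samples were both of pair 5 and the Tlr2-/- sample of pair 4, and the groups overlapped. Before normalisation, the Adipoq spot read 3199.5 scanner units over a local background of 64.5 in the Tlr2-/- sample of pair 5, and 69 over 38.5 in that of pair 1. The reading in pair 1 was not well above background. The log2 ratios of Tlr2-/- over WT were -0.45, -0.04, 1.40 and 2.82 for pairs 1, 2, 4 and 5, a mean of 0.93 ± 1.49 (SD, n = 4).

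Cfd encodes adipsin, the protease complement factor D. Its levels were 7.68, 7.33, 10.24 and 13.25 in the Tlr2-/- samples of pairs 1, 2, 4 and 5, against 8.30, 8.13, 8.53 and 10.58 in the WT samples. The 2 lowest of the 8 samples were the Tlr2-/- samples of pairs 1 and 2, and 2 of the 3 highest were those of pairs 4 and 5. Cfd had the widest range of the 8 members, 5.92 (log2) over the 8 samples. Its log2 ratios were -0.62, -0.80, 1.71 and 2.66, with a mean of 0.74 ± 1.72 (SD, n = 4).

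Retn encodes resistin, a hormone made by fat cells in mice. Its levels were 6.51, 6.49, 6.88 and 8.25 in the Tlr2-/- samples, against 6.59, 6.49, 6.47 and 7.28 in the WT samples. Pair 5 again held both high values, and the other 6 samples lay close together and near background. Its brighter probe was well above background in 3 of 4 Tlr2-/- and 3 of 4 WT samples. The second Retn probe gave log2 ratios of -0.0057, -0.02, 0.19 and 0.87, beside -0.08, 0.0040, 0.41 and 0.97 on the brighter probe. At signals this low, the constant added in background correction shrinks a ratio.

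Plin1 encodes perilipin 1, which coats the lipid droplet of fat cells and restrains lipolysis. Its levels were 6.51, 6.99, 7.38 and 9.57 in the Tlr2-/- samples, against 6.66, 6.85, 6.70 and 7.59 in the WT samples. The Tlr2-/- sample of pair 5 stood 1.97 (log2) above the next highest sample, its own WT partner. The log2 ratios were -0.14, 0.14, 0.68 and 1.97, with a mean of 0.66 ± 0.938 (SD, n = 4).

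Cidec encodes the fat-specific protein 27, which lets lipid droplets fuse and grow. Its pattern differed from that of the other droplet protein. The levels were 11.84, 11.72, 11.04 and 13.06 in the Tlr2-/- samples of pairs 1, 2, 4 and 5, against 12.09, 10.89, 12.01 and 12.52 in the WT samples. Pair 5 held both of the highest values, but the Tlr2-/- sample of pair 4, which was high for most other members, was the second lowest of the 8 samples. The log2 ratios were -0.25, 0.83, -0.97 and 0.54, a mean of 0.04 ± 0.810 (SD, n = 4), with 2 pairs on each side of 0. By these ratios Cidec stood at place 10465 of 14694 genes in likeness to Adipoq.

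Promoter sequences, from 250 bases before to 50 bases after an annotated start, were matched from RefSeq (GRCm38.p6) for Adipoq, Cfd, Retn, Plin1 and Cidec. Cidec had 2 annotated starts, 996 bases apart, and each other matched member had 1. The 2 Cidec promoters are printed because its pattern differed from the rest, and those of Adipoq and Plin1 as examples of members that followed pair 5. Cfd and Retn also had their highest levels in pair 5. Their promoters are not printed and held no match to any motif counted below. Capitals mark CCAAT and TTNNGCAA, a short form of the site bound by the fat cell C/EBP factors, on either strand.
Adipoq, chr16:23146286-23146585, plus strand: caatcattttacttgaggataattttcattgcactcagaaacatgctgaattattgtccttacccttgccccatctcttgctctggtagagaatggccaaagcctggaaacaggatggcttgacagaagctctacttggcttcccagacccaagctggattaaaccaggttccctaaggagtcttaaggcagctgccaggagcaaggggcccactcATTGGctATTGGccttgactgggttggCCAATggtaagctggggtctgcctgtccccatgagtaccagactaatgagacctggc
Plin1, chr7:79732727-79733026, minus strand: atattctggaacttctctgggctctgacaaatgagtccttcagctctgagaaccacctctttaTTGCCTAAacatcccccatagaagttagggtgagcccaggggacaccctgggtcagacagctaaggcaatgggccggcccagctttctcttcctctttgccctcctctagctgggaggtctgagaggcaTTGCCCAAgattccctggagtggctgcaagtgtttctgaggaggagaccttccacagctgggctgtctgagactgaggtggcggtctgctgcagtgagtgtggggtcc
Cidec, upstream start, chr6:113435711-113436010, minus strand: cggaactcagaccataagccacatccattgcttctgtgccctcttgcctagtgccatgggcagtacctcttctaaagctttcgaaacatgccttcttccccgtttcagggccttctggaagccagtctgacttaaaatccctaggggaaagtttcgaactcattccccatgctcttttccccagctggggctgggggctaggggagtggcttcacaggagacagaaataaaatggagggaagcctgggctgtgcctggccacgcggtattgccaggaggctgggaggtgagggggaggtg
Cidec, downstream start, chr6:113434715-113435014, minus strand: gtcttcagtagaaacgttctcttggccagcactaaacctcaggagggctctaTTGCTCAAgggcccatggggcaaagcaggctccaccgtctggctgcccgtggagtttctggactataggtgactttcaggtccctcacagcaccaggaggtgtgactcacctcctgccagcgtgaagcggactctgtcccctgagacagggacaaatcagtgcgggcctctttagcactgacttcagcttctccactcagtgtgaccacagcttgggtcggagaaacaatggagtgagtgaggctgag

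Over these windows CCAAT occurred 3 times in Adipoq and 0 times in the other 5 promoters, and 37.4% of 32851 promoters of the same length held it. TTNNGCAA occurred 2 times in Plin1, 1 time at the downstream Cidec start, and in 10.8% of all promoters. AGGTCA, a core site of PPAR and other nuclear receptors, occurred in 0 of the 6 promoters and in 16.3% of all. Its direct repeat with 1 base between, the full PPAR site, was found in 0 of the 6 and in 0.0396% of all. TATAAA was in 0 of the 6, against 13.6% of all promoters. All motifs were searched on both strands, CCAAT and TTNNGCAA did not overlap in these windows, and a match is a description of letters.

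Fabp4 encodes the fatty acid carrier of the fat cell cytosol, which capillary endothelium and macrophages also make. Its levels were 8.60, 8.71, 10.42 and 13.99 in the Tlr2-/- samples of pairs 1, 2, 4 and 5, against 8.93, 8.93, 9.54 and 10.45 in the WT samples. The Tlr2-/- sample of pair 5 was 33.2-fold above the median of the other 7 samples. The log2 ratios were -0.34, -0.22, 0.88 and 3.54, with a mean of 0.97 ± 1.80 (SD, n = 4). A second probe gave -0.48, -0.28, 1.06 and 3.24. The remaining probe, a dim one, gave 0.09, -0.12, -0.0097 and 0.65, and it was well above background in 2 of 4 samples of each genotype.

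Lpl encodes lipoprotein lipase, which frees fatty acids from circulating triglyceride and is made in fat and muscle. Its levels were 10.41, 10.71, 10.20 and 12.32 in the Tlr2-/- samples, against 10.38, 9.90, 10.25 and 10.80 in the WT samples. Only the Tlr2-/- sample of pair 5 stood apart, 1.52 (log2) above the next sample, and the Tlr2-/- sample of pair 4 was not high. The log2 ratios were 0.03, 0.81, -0.05 and 1.52, with a mean of 0.58 ± 0.739 (SD, n = 4). The second Lpl probe gave -0.20, 1.11, -0.09 and 1.29.

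Car3, a cytosolic carbonic anhydrase abundant in fat and in skeletal muscle, had levels of 8.30, 8.33, 9.66 and 12.54 in the Tlr2-/- samples, against 8.31, 8.20, 8.41 and 9.57 in the WT samples. The Tlr2-/- samples of pairs 1 and 2 lay with the WT samples, and those of pairs 4 and 5 above all WT samples. Without normalisation between arrays, the Tlr2-/- sample of pair 4 stood at 9.39, below the 9.61 of the WT sample of pair 5. The log2 ratios were -0.01, 0.12, 1.26 and 2.98, with a mean of 1.09 ± 1.38 (SD, n = 4). Of the genes of skeletal muscle, Acta1 had ratios of 1.26, 0.38, -0.47 and 0.68, Mylpf 0.12, -0.07, -0.21 and -0.14, and Tnnc2 0.07, -0.21, 0.14 and 0.05. The median of 8 muscle genes was 0.07, -0.0012, -0.04 and 0.03.

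The first comparison asked whether the genotypes differed in these transcripts. By limma with a dye term, 0 of 8 members passed an adjusted p of 0.05, and 0% of the 14695 genes passed it. The adjusted p ran from 0.594 for Adipoq, Cfd and Car3 to 0.988 for Cidec. Over all genes 1191 had an unadjusted p under 0.05, and 3.85% of all genes had one with a higher level in Tlr2-/-. Of the members, 3 did, namely Car3 with a 95% interval of 0.22 to 1.95 (log2), Adipoq with 0.18 to 1.68 and Cfd with 0.22 to 1.26. The interval reached from -0.34 to 2.27 for Fabp4, from -0.30 to 1.46 for Lpl, from -0.02 to 1.34 for Plin1, from -0.03 to 0.68 for Retn and from -0.89 to 0.96 for Cidec. The dye term bears on these calls. Without it the unadjusted p in limma was 0.0943 for Car3, 0.162 for Adipoq and 0.310 for Cfd, so 0 of the 3 stayed under 0.05.

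The submitters' own criterion required a change above 1.6-fold on 2 or more arrays and no array against it. By it 0 of 8 members passed, against 1.48% of all genes. Under other settings Car3 passed it without background correction, Plin1 with median centring, Plin1 and Car3 without pair 1, and Lpl without pair 4. Of all 14695 genes, 234, 339, 884 and 188 passed it under these settings, in that order. Leaving out a pair also leaves fewer arrays that could go against a gene. The direction was shared by all 4 arrays for 0 of 8 members, against 15.6% of all genes. In the authors' deposited table of transcript hits 0 of 8 appeared, and the share of all genes in that table was not counted. The ranges of the Tlr2-/- and WT levels overlapped for all 8 members, while they did not overlap for 4.67% of all genes. With 8 genes, the counts of 0 for the rule, for shared direction and for ranges apart cannot be told from these shares. The median over the members of the mean log2 ratio was 0.70, beside -0.0085 over all genes tested, and it was 0.17 without pair 5 and 1.06 without pair 1. Without pair 5 the plain mean log2 ratio was 0.10 for Cfd, 0.11 for Fabp4, 0.30 for Adipoq, 0.45 for Car3, 0.23 for Plin1, 0.11 for Retn, 0.27 for Lpl and -0.13 for Cidec. Without pair 5 the fitted log2 ratio was 0.58 for Adipoq, 0.50 for Cfd, 0.66 for Car3, 0.30 for Fabp4, 0.34 for Plin1, 0.19 for Retn, 0.19 for Lpl and -0.34 for Cidec. Without pair 4 it was 1.63 for Fabp4, 0.97 for Lpl and 0.41 for Cidec.

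**Figure D2:**
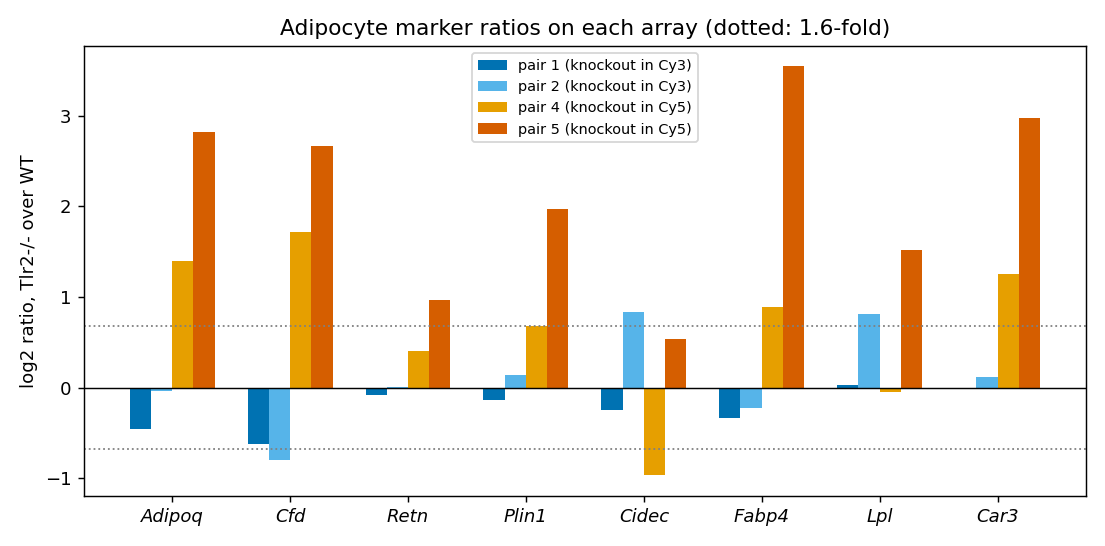
Log2 ratio of Tlr2-/- over WT for each adipocyte marker on the 4 arrays, with 1 bar per pair starting at 0 and dotted lines at 1.6-fold. The bars of pair 5 are positive for all 8 genes and reach 3.54 for Fabp4, and those of pair 1 lie between -0.62 and 0.03.

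Pair by pair, the members separated from the rest of the genes mainly in pair 5. There 7 of 8 members were over 1.6-fold higher in Tlr2-/-, against 3.11% of all genes, with Cidec as the exception. In pair 4 it was 5 of 8, against 6.55% of all genes, and Cidec was over 1.6-fold lower, as were 7.88% of all genes. In pair 2 it was 2 of 8 (Cidec and Lpl), against 4.39%, and Cfd was over 1.6-fold lower, as were 5.3% of all genes. In pair 1 it was 0 of 8, against 8.58%. The median log2 ratio over the 8 members was -0.20, 0.06, 0.78 and 2.32 for pairs 1, 2, 4 and 5, while that of all genes lay between -0.03 and 0.0046. On the array of pair 5, Fabp4 had the highest ratio of all genes tested, Car3 the second highest, Adipoq stood at place 4 and Cfd at place 6. The differences were 11.7-fold for Fabp4, 7.87-fold for Car3, 7.09-fold for Adipoq and 6.34-fold for Cfd.

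The members also varied more between samples than most genes. The median range over the 8 samples was 3.70 (log2) for the members and 0.64 for all genes, and 5 of 8 members exceeded a range of 3, as did 0.483% of all genes. The median SD of the 4 log2 ratios was 1.16 for the members and 0.28 for all genes. Relative to the median of the other 7 samples, the Tlr2-/- sample of pair 5 was 30.9-fold higher for Cfd, 19.8-fold for Adipoq, 18.6-fold for Car3, 6.58-fold for Plin1, 3.84-fold for Lpl and 2.33-fold for Cidec.

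The higher ratios lay in the pairs whose Tlr2-/- sample carried Cy5, so genotype ratios, dye and pair moved together in part. The dye coefficient of the fit, Cy5 over Cy3, was positive for 7 of 8 members, from 0.15 for Lpl to 1.45 for Cfd (log2), and -0.25 for Cidec. In limma its unadjusted p was under 0.05 for 4 members, 0.00144 for Cfd, 0.0119 for Adipoq, 0.0293 for Car3 and 0.0480 for Retn, against 2.69% of all genes with a positive coefficient, and its adjusted p was 0.840 to 0.914. Within arrays 1 and 2 the WT sample, in Cy5, was above its Tlr2-/- partner for Adipoq, Cfd and Fabp4. For the other members this did not hold on both arrays. Their log2 ratios in pairs 1 and 2 were 0.03 and 0.81 for Lpl, -0.25 and 0.83 for Cidec and -0.14 and 0.14 for Plin1. They were -0.01 and 0.12 for Car3 and -0.08 and 0.0040 for Retn. The WT sample of pair 5 carried Cy3 and had the highest WT levels. The part of the dye in these ratios was not tested further. Both samples of pair 5 share 1 array, and the part of that array in their high levels was not tested.

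Other genes of white adipocytes were followed in a list of 29, of which 24 were measured. In pair 5, 8 of the 24 were over 1.6-fold higher and 0 lower, beside 3.11% of all genes higher and 401 of the 14695 genes lower. In pair 4, 2 were higher and 4 lower, against 6.55% and 7.88% of all genes. In pair 2, 1 was higher and 2 lower, against 4.39% and 5.3%. In pair 1, 1 was higher and 2 lower, against 8.58% of all genes higher and 1082 of the 14695 genes lower. Its median log2 ratio stood at -0.13, 0.06, 0.09 and 0.29 from pair 1 to pair 5. By limma 0 of 24 passed, and by the submitters' rule 0 were higher and 0 lower. The Tlr2-/- sample of pair 5 held the highest level for 11 of the 24, against 9.61% of all genes.

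The genes of this list that were higher in pair 5 included Plin4, a lipid droplet coat of fat cells. Its levels were 7.51, 7.21, 8.76 and 11.34 in the Tlr2-/- samples of pairs 1, 2, 4 and 5, against 7.48, 7.32, 7.81 and 8.49 in the WT samples, and its ratio stood at place 3 of all genes in pair 5. Cd36, a fatty acid transporter of fat, muscle and capillaries, had levels of 6.58, 6.63, 6.95 and 8.97 in the Tlr2-/- samples, against 6.54, 6.42, 6.52 and 7.42 in the WT samples. Of the remaining 6, all but Mgll were picked out after their values were seen. In pair 5 the log2 ratio was 2.16 for Scd1, a fatty acid desaturase, 1.57 for Thrsp, a promoter of lipid synthesis, 1.45 for Cav1, the main caveolar protein, and 1.04 for Nnat. It was 0.76 for Mgll, a monoglyceride lipase, and 0.74 for Slc2a4, the insulin-responsive glucose transporter. In pairs 1, 2 and 4, Cav1 had ratios of -0.31, -0.83 and -1.14 and Mgll -0.63, 0.18 and -0.77. Slc2a4 had its highest level, 8.40, in the Tlr2-/- sample of pair 4, against 8.07 in that of pair 5.

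**Figure D3:**
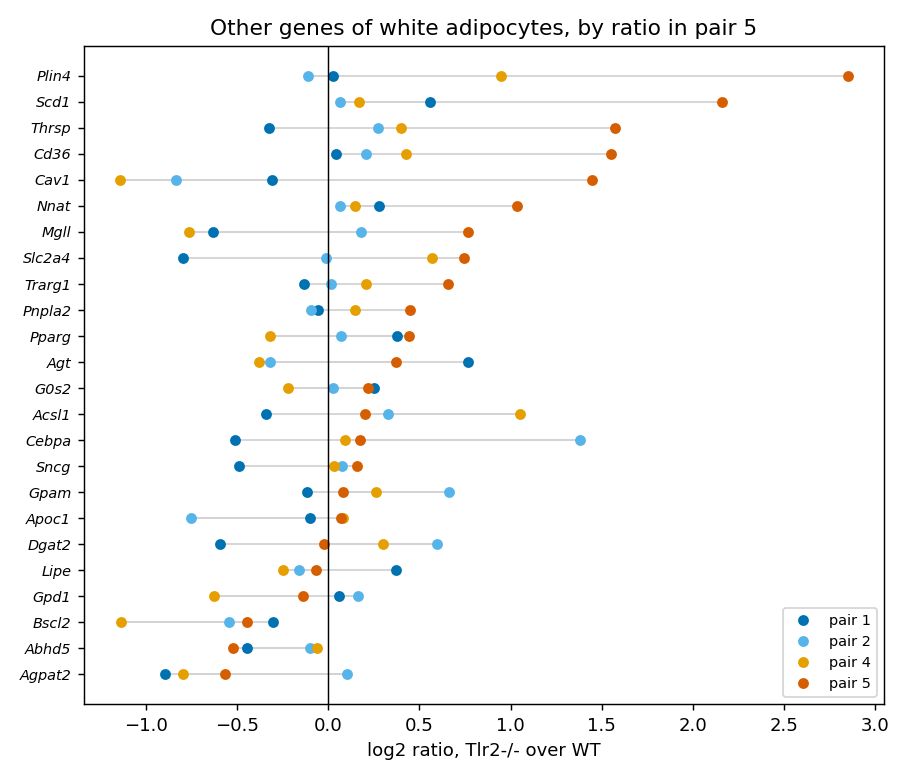
Log2 ratio of Tlr2-/- over WT on the 4 arrays for 24 other genes of white adipocytes, ordered by their ratio in pair 5. Plin4, at 2.85 in pair 5, lies at the top, and most genes in the lower part of the plot have small ratios in pair 5.

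The other genes of this list with the highest signals had smaller or mixed ratios. Pparg, the nuclear receptor that drives fat cell formation and is also made by colonocytes, had log2 ratios of 0.38, 0.07, -0.32 and 0.44 for pairs 1, 2, 4 and 5. Cebpa, its partner transcription factor, had -0.51, 1.38, 0.09 and 0.17. Dgat2, which makes triglyceride, had -0.59, 0.60, 0.30 and -0.02, and Pnpla2, the first lipase of triglyceride breakdown, had -0.06, -0.09, 0.15 and 0.45. For Gpd1, which makes glycerol phosphate, the ratios were 0.06, 0.16, -0.63 and -0.14. Acsl1, an acyl-CoA synthetase, was at -0.34, 0.33, 1.05 and 0.20, and Agpat2, an enzyme of phosphatidic acid synthesis, at -0.89, 0.11, -0.80 and -0.57.

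Lep, the hormone leptin, had 1 probe, which did not pass the filter on low signal. It was well above background in 1 of the 8 samples, the Tlr2-/- sample of pair 5, where it read 114.9 scanner units over a background of 67.6. Aqp7, the glycerol channel of fat cells, was well above background in both samples of pair 5 and in none of the other 6. Adig, a small protein of fat cells, was well above background in 1 sample, the WT sample of pair 1. There it read 77 scanner units over a background of 69. The Tlr2-/- sample of pair 1, not called well above background, read 60 over 42.

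Genes of brown adipocytes were read in the same way. Ucp1, the uncoupling protein that defines brown fat, and Elovl3 were well above background in 0 of 8 samples. Among 6 measured genes, 0 had their highest level in the Tlr2-/- sample of pair 5, against 9.61% of all genes. With 6 genes, that count cannot be told apart from the share of all genes. The median log2 ratio was 0.06, -0.56, -0.16 and 0.06 in the 4 pairs. Cidea, a droplet protein of brown fat and a paralog of Cidec, had log2 ratios of -1.02, -0.38, -0.68 and 0.13. Cox7a1, a muscle and brown fat subunit of cytochrome oxidase, had 0.29, -0.61, -0.80 and -0.85.

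Paralogs of the members, from epithelium and other cells, were set beside the fat forms. Of 23 measured, 3 were over 1.6-fold higher in pair 5, against the 3.11% of all genes. In the lower direction there were 2, against 401 of the 14695 genes, and the median ratio of the list was 0.03. Retnlb, the goblet cell relative of resistin, had levels of 15.04, 15.08, 14.07 and 15.35 in the Tlr2-/- samples of pairs 1, 2, 4 and 5, against 12.28, 14.25, 11.78 and 12.65 in the WT samples. Its ratios of 2.76, 0.83, 2.29 and 2.70 were positive in all pairs, unlike those of Retn, and it passed the submitters' rule, with an adjusted p of 0.594 in limma. The authors' deposited table lists Retnlb at a mean ratio of 4.85.

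Plin2, the droplet coat of many cell types, passed the submitters' rule in the lower direction, with log2 ratios of -0.74, -0.45, -0.40 and -0.72 and an adjusted p of 0.594 in limma. Plin3, another broadly made droplet coat, had -0.39, 0.42, 1.24 and 0.42. Car4, a membrane carbonic anhydrase of the colonocyte, had -0.90, 1.08, 0.58 and 0.67, with 1 saturated WT reading. Fabp2, the intestinal fatty acid carrier, and Car1, the main colonic carbonic anhydrase, were saturated on most or all arrays, so their ratios carry no reliable size. Car2 was saturated in 2 of 4 samples of each genotype, and Car12 had ratios of 0.10, 0.15, -1.33 and -0.32.

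Of 7 measured genes that control lipoprotein lipase, 2, Gpihbp1 and Sel1l, had their highest level in the Tlr2-/- sample of pair 5, against 9.61% of all genes. Gpihbp1, which anchors the lipase on capillary endothelium, had log2 ratios of 0.09, -0.37, -0.10 and 0.37. Lmf1, its maturation factor in the endoplasmic reticulum, had 0.53, -0.65, -0.87 and -0.55, and Sel1l had -0.42, 0.48, 0.70 and 0.32. Angptl4, an inhibitor of the lipase that PPAR induces in fat and gut, had -0.15, -1.02, -2.97 and -1.75, and it passed the submitters' rule in the lower direction, with an adjusted p of 0.594 in limma. The authors' deposited table lists it at a mean ratio of 0.428. Angptl8, Apoa5 and Apoc3 stayed within 0.49 of 0 in every pair.

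Lists for 10 other cell types of the bowel wall and its surroundings were read on the same arrays. In pair 5 their medians lay between -0.47 and 0.32, against 2.32 for the adipocyte members. The list of 24 other white adipocyte genes, with a median of 0.29 in pair 5, lay within the range of these cell types. Endothelium, a further source of Fabp4 and Cd36, had list medians of -0.03, -0.02, -0.15 and 0.12 for pairs 1, 2, 4 and 5. Its mean centred level ran from -0.01 to 0.07 in Tlr2-/- samples, against -0.10 to 0.14 in WT samples. Vwf, the clotting factor of endothelium, had ratios of 0.55, -0.31, 0.44 and -0.0029, Lyve1, of lymphatic vessels, -0.69, -0.02, 0.35 and 0.12, and Egfl7 0.95, -0.09, -0.73 and 0.11. Macrophages, another source of Fabp4 and Lpl, had medians of 0.03, -0.36, 0.04 and -0.05. Cd14, Csf1r and Itgam had pair 5 ratios of -0.74, 0.10 and 0.22.

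The mesothelium, which covers the outer face of the bowel, had list medians of -0.20, 0.0011, -0.49 and -0.14, with Msln, or mesothelin, at -0.60, -0.11, -0.76 and -0.46. Smooth muscle had medians of -0.94, -0.06, -0.30 and 0.32, fibroblasts 0.47, -0.65, -0.44 and 0.09, exocrine pancreas -0.05, -0.17, -0.02 and 0.0039, and enteric neurons and glia 0.08, 0.22, -0.18 and 0.02. B cells had medians of 0.11, -0.61, -0.15 and -0.09. The colonic epithelium list stood at 0.58, 0.47, -0.62 and -0.47, but 10 of its 13 genes were saturated in at least 1 sample. By limma 0 genes passed in each of these lists.

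**Figure D4:**
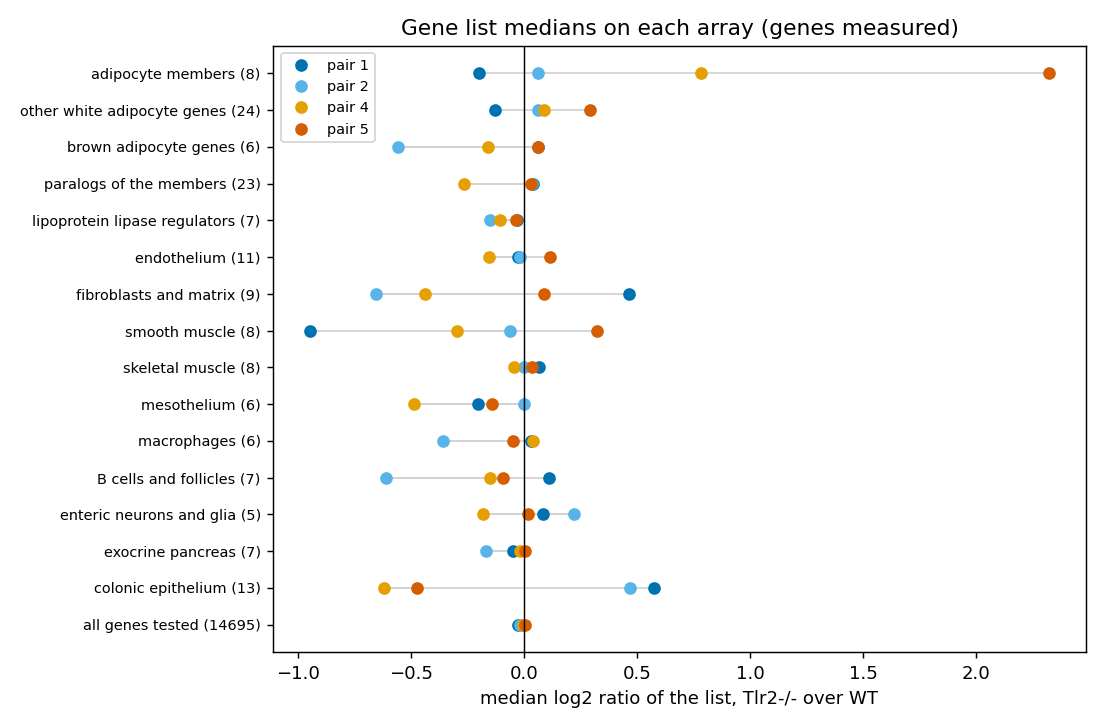
Median log2 ratio of Tlr2-/- over WT of each gene list on the 4 arrays, with the number of measured genes in brackets. The adipocyte members reach 2.32 in pair 5, and the lists of other cell types lie between -0.47 and 0.32 in that pair. The list of other white adipocyte genes, at 0.29, lies within that range.

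The genes most like Adipoq were ranked by the root mean square difference of their 4 log2 ratios from those of Adipoq, over 4 arrays. Of the 5 nearest of 14694 genes, 4 were members, Car3 at 0.256, Cfd at 0.426, Fabp4 at 0.454 and Plin1 at 0.585. The other was Plin4 at 0.332. Among genes outside the members, Plin4 was followed by Cyp2e1 at 0.646, Dusp1 at 0.665, Rnd3 at 0.674, Slc6a14 at 0.703, Camk1d at 0.716, Pan3 at 0.762, Atf3 at 0.772, Dusp10 at 0.774 and Ccdc80 at 0.781. Cyp2e1, a cytochrome P450 of liver and fat, had ratios of -0.25, -0.10, 0.74 and 1.74. Dusp1, an early response phosphatase, had -0.02, 0.30, 0.76 and 1.79, and Ccdc80, a secreted matrix protein, -0.17, -0.19, 0.73 and 1.45. Retn, at 1.07, and Lpl, at 1.09, stood at places 122 and 145.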

How the data were processed

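RNA of scraped colonic mucosa from 4 pairs of Tlr2-/- and WT samples was compared on 4 two-colour arrays. Groups, pair numbers and dyes came from the labels, and the methylation arrays were not used here. Each scanner file gives the intensity of every spot in both channels, per the file headers, which name Agilent Feature Extraction 10.5.1.1; the submitters' processing notes give 8.5.1.1. The log10 ratio that the authors deposited in these files served to check the direction of the channels. The authors deposited a linear ratio per array for their transcript hits, per the file headers.

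Median signals were background-corrected (normexp, offset 50) and loess-normalised with limma 3.58.1 in R 4.3.3. Control spots had weight 0, outlier spots were removed and saturated spots kept. Levels per channel were normalised between arrays with Aquantile. Of 41174 probes, 25097 were named by accession through RefSeq GRCm38.p6 and 17 by the authors' deposited tables. Kept were probes with a detected signal on 2 or more arrays in the channel of 1 genotype, and the brightest stood for its gene. Genes were fitted with lmFit and eBayes on log2 ratios with a dye term, with Benjamini-Hochberg adjustment over 14695 genes. Pairs correspond to arrays, so every ratio is within a pair.

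The members and gene lists were chosen with earlier results of these data known. Named beside the members were up to 8 genes per fat-related list and 3 per cell type by mean level, some fixed genes, and the 10 nearest to Adipoq. The fit was tested on simulated data.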

Additional observations from a re-analysis of the deposited data

Results flagged for a closer look

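In 3 of 24 groups of 4 values examined (ratios, Tlr2-/- levels and WT levels of the 8 members), 1 sample stood apart from the rest by Dixon's 95% criterion, and chance alone marks about 1 in 20 such groups. All 3 were WT levels, and the sample was that of pair 5. They share 1 sample and so are not independent, and the 1 in 20 rate does not apply to them together. Of the levels, only those normalised with Aquantile were examined. The gap to the nearest WT sample, as a share of the WT range, was 0.836 for Cfd, 0.857 for Retn and 0.852 for Car3. The levels of the Tlr2-/- samples did not reach the criterion for any member, since the sample of pair 4 lay between that of pair 5 and the others for most of them.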

How the results depend on the processing

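Of 94 refitted member ratios, 27 could not move by construction. Of the other 67, 64 kept their direction, and none of the 94 passed the adjusted p, whose lowest value was 0.191, for Adipoq without pair 1. Adipoq and Retn were not tested under the strict filter. The 3 that changed sign were all Cidec, at -0.0725 with median centring in place of loess, -0.23 without pair 2 and -0.34 without pair 5; the cause was not tested. Cidec's values ran from -0.34 to 0.41. With Agilent processed signals Plin1 was at 1.21 and Retn at 1.06, against 0.66 and 0.33.  Over all genes limma called 3 without the dye term, 1 without background correction, 4 with an offset of 1, 4 with Agilent processed signals, 1 with median centring and 1 with the strict filter. The submitters' rule then gave 333 genes with an offset of 1, 559 with processed signals and 339 with median centring, against 217, of which 45 were higher and 294 lower with median centring, against 112 and 105. Leaving out 1 pair gave 178 to 884 genes, the highest without pair 1. The level of the Tlr2-/- sample of pair 5 over the other 7 held in 15 of 16 checks, and moved for Retn to 2.39 without normalisation between arrays, against 1.73. No paired analysis was possible beyond the arrays' own pairing because both samples of a pair share 1 array.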

Other observations

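Some genes of other cell type lists, chosen after their values were seen, had large ratios in 1 or 2 pairs. In pair 2 the B cell genes Cd79b, a subunit of the B cell receptor, and Ms4a1, the surface protein CD20, had log2 ratios of -2.59 and -1.66, against -0.51 and -0.14 in pair 5. In pair 1 the smooth muscle actins Acta2 and Actg2 had ratios of -2.01 and -1.54, against 0.48 and 0.24 in pair 5. In pair 1 the glial gene S100b was at 1.77, against 0.03 in pair 5. Dcn, the matrix protein decorin, was at -1.67 in pair 2 and -2.18 in pair 4, against -0.31 in pair 5. By limma, 0 of them reached an adjusted p of 0.05.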
